A study of Mus musculus with 7 samples.

Results

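T cell and cytotoxic lymphocyte genes were followed in endpoint brain tumors of mice, 9 in all, namely the CD3 chain genes Cd3d, Cd3e and Cd3g, the coreceptor genes Cd4 and Cd8a, the kinase gene Lck, and the cytotoxic genes Nkg7, Prf1 and Gzmb. The members were the rows of the table of normalized counts that carry these 9 symbols, out of 19257 genes, and all 9 reached the mean normalized count of 10 required for testing, as did 14782 genes in all. Tumors were made by in utero electroporation of CRISPR-Cas9 guides that target tumor suppressors including Trp53 and Nf1, in mice of CD-1 and C57BL/6 backgrounds with an intact immune system. Both groups carried these guides and a piggyBac label. The 3xCR group (labelled control) had nothing further, and the GPC6 group also received a piggyBac transposon made to overexpress GPC6, a glypican, in the tumor cells. Each of the 3 libraries of the 3xCR group (replicates 2, 3 and 4) and the 4 of the GPC6 group (replicates 1 to 4) came from tissue of 1 brain, taken at the survival endpoint under fluorescence. The age and sex of the animal behind each library are not given. The samples are labelled as brain, with neural as the cell type, yet all 5 pan-leukocyte markers examined had reads in all 7 libraries.

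T cells recognize peptides on major histocompatibility complex (MHC) molecules through a receptor whose antigen-binding chains do not signal themselves. The signal passes through the CD3 delta, epsilon and gamma chains, which the kinase LCK phosphorylates, and LCK is brought to the receptor by CD4, which binds MHC class II, or by CD8, which binds MHC class I. CD8 T cells and natural killer (NK) cells kill by releasing granules that hold perforin, encoded by Prf1, and granzymes such as that encoded by Gzmb, and Nkg7 encodes a protein of the granule membrane. In glioma, lymphocytes enter from the blood and are usually far outnumbered by microglia and macrophages.

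Cd3g, Cd3d and Cd3e lie next to each other on chromosome 9 of GRCm38 within 40056 bases, and Cd3g and Cd3d are transcribed away from each other from starts 1355 bases apart. Since the 3 genes moved together across the tumors, the 250 bases before their RefSeq starts (GRCm38.p6) are shown together with those of Cd8a and Gzmb, which followed them less closely. Capitals mark matches on either strand to AGGAAG (the core that ETS factors bind, or CTTCCT on the other strand), TGTGGT (the RUNX core, or ACCACA) and CANNTG (the E-box, which reads the same on both strands).
Cd3g, chr9:44980432-44980681, minus strand: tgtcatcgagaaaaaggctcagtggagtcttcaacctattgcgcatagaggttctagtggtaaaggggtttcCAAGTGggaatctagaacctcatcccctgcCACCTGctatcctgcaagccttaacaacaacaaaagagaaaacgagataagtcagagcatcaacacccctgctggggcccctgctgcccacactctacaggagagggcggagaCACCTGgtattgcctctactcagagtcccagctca
Cd3d, chr9:44981536-44981785, plus strand: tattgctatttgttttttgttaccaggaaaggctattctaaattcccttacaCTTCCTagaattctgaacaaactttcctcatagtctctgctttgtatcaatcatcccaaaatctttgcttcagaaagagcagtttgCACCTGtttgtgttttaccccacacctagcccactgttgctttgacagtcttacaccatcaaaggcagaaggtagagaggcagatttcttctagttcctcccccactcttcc
Cd3e, chr9:45009612-45009861, minus strand: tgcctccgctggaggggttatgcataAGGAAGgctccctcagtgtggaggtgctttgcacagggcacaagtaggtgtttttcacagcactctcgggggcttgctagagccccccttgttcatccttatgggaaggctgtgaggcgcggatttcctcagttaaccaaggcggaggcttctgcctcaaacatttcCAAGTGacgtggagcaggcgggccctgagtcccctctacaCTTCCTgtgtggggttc
Cd8a, chr6:71373177-71373426, plus strand: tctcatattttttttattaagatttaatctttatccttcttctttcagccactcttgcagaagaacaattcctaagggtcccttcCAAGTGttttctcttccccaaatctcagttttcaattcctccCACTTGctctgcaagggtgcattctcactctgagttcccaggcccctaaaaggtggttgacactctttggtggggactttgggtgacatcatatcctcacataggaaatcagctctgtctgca
Gzmb, chr14:56262335-56262584, minus strand: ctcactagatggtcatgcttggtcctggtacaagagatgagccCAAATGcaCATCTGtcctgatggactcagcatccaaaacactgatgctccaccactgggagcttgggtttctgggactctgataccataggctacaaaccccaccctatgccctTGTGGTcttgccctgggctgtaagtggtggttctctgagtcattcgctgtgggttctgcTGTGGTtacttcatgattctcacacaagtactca
Of the 3 CD3 windows, those of Cd3d and Cd3e held ETS core letters, 1 and 2 matches, all 3 held an E-box, and none held the RUNX core. The Gzmb window held 2 RUNX cores and 2 E-boxes, and that of Cd8a 2 E-boxes. The window of Prf1, not shown, held 2 ETS cores, 1 RUNX core and 4 E-boxes, and Prf1 followed the CD3 chains less closely than Cd8a and Gzmb did. Whether any of these letters go with the likeness between genes was not tested. RefSeq windows were found for 8 of the 9 members (9 windows, as Lck has 2 starts). Of these 9 windows, 6 held the ETS core, 4 the RUNX core and 8 an E-box, against 29.5%, 14.0% and 66.2% of the 32817 windows of all genes. A match describes letters and not a bound site. RefSeq starts and the GENCODE annotation differed for some genes. The Cd3e window (from 45009612) reached into the annotated gene (to 45009627). The Gzmb window (from 56262335) began beyond the annotated gene (to 56262260).

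The other members lie apart from each other (GRCm38, GENCODE annotation, whole genes). Cd4 spans chr6:124864692-124888221 on the minus strand and Cd8a chr6:71373427-71379173 on the plus strand. Lck spans chr4:129548344-129573641 on the minus strand and Nkg7 chr7:43437073-43438249 on the plus strand. Prf1 spans chr10:61297833-61304680 on the plus strand and Gzmb chr14:56258838-56262260 on the minus strand. Each deposited value is 1 total per gene, with no split by exon.

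The libraries held 7197692 to 18879762 reads counted on genes, and normalized counts are such reads after scaling by the size factor of the library. Values of single libraries are listed below in the order of replicates 2, 3 and 4 for 3xCR tumors and 1, 2, 3 and 4 for GPC6 tumors. Gpc6 had 126 to 226 normalized counts for 3xCR and 675, 263, 3434 and 5084 for the libraries labelled GPC6. Replicate 2 of these was the lowest and lay near the 3xCR level. It had a 95% exact Poisson interval of 232 to 296 normalized counts, and 3xCR replicate 3 one of 199 to 256. It was kept as labelled, and the median log2 fold change of the 9 members was -1.06 with and without it, with 9 and 8 of them lower in GPC6 tumors. GPC6 replicate 1 and 3xCR replicate 4 stood apart from the rest, as GPC6 replicate 1 had the highest value of 31.3% and the lowest of 31.3% of the 14782 genes tested, and 3xCR replicate 4 the highest of 23.9% and the lowest of 22.2%. Group differences of the members and the medians of the pathway lists are therefore given with and without both.

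The CD3 chain genes were highest in 3xCR replicate 4 and lowest in GPC6 replicate 1. Cd3d, which encodes CD3 delta, had 45.5, 23.3 and 191 normalized counts across the 3xCR tumors and 4.64, 17.8, 29.3 and 23.7 across the GPC6 tumors. Cd3e, for CD3 epsilon, had 42.2, 24.2 and 166 against 9.27, 27.7, 28.4 and 26.7. Cd3g, for CD3 gamma, had 84.4, 76.3 and 308 against 34.0, 59.3, 77.2 and 81.3. In all 3 genes the groups overlapped, since 3xCR replicate 3 lay among the GPC6 libraries. The gap between 3xCR replicate 4 and its group was large next to counting error, as 138 reads of Cd3d gave a 95% exact Poisson interval of 160 to 225 normalized counts, whereas the 4.64 of GPC6 replicate 1 rested on 3 reads with an interval of 0.956 to 13.6. Such intervals cover counting error only.

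Lck, the kinase gene, was the 1 member whose groups did not overlap. It had 169, 149 and 530 normalized counts in 3xCR tumors and 58.7, 84.0, 136 and 90.5 in GPC6 tumors. Every GPC6 library was below every 3xCR library, by a small margin between GPC6 replicate 3 and 3xCR replicate 3, whose Poisson intervals of 115 to 159 and 127 to 174 overlapped. The mean of Lck was 92.2 ± 32.1 (SD, n = 4) for GPC6 against 283 ± 215 (SD, n = 3) for 3xCR. Of all genes tested, 3.52% had groups apart in this direction.

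The coreceptor genes did not follow the CD3 chains in the same way. Cd4 had 51.5, 59.5 and 304 normalized counts in 3xCR tumors and 196, 81.0, 71.0 and 50.4 in GPC6 tumors. GPC6 replicate 1 was thus the second highest library for Cd4 and the lowest for each CD3 chain, with 127 reads of Cd4 beside 3, 6 and 22 reads of Cd3d, Cd3e and Cd3g. Cd8a, which encodes CD8 alpha, had 86.6, 94.9 and 109 in the 3xCR and 18.5, 66.2, 108 and 73.0 in the GPC6 libraries. It did not stand out in 3xCR replicate 4, where the Poisson interval of 86.4 to 136 overlapped those of the other 3xCR libraries, and it was low in GPC6 replicate 1. Cd8b1, which encodes the partner chain CD8 beta, ran alongside at 0.418 to 0.532 of the Cd8a value in 6 libraries, and GPC6 replicate 1 had 12 reads of either gene.

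Among the cytotoxic genes, Nkg7 had 82.8, 89.3 and 192 normalized counts in 3xCR tumors and 24.7, 49.4, 70.1 and 95.7 in GPC6 tumors. Gzmb had 8.77, 37.2 and 84.3 in the 3xCR libraries and 0, 16.8, 24.0 and 24.7 in the GPC6 libraries, where the count of 0 in GPC6 replicate 1 allows up to 4.64 normalized counts (3 reads). Both had their highest value in 3xCR replicate 4 and their lowest in GPC6 replicate 1, with overlapping groups. Prf1 had another order, with 25.2, 46.5 and 58.0 in the 3xCR and 12.4, 13.8, 86.0 and 80.2 in the GPC6 libraries. Its 2 highest values were those of GPC6 replicates 3 and 4, above the whole 3xCR group, and its 2 lowest those of GPC6 replicates 1 and 2, below it.

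**Figure D1:**
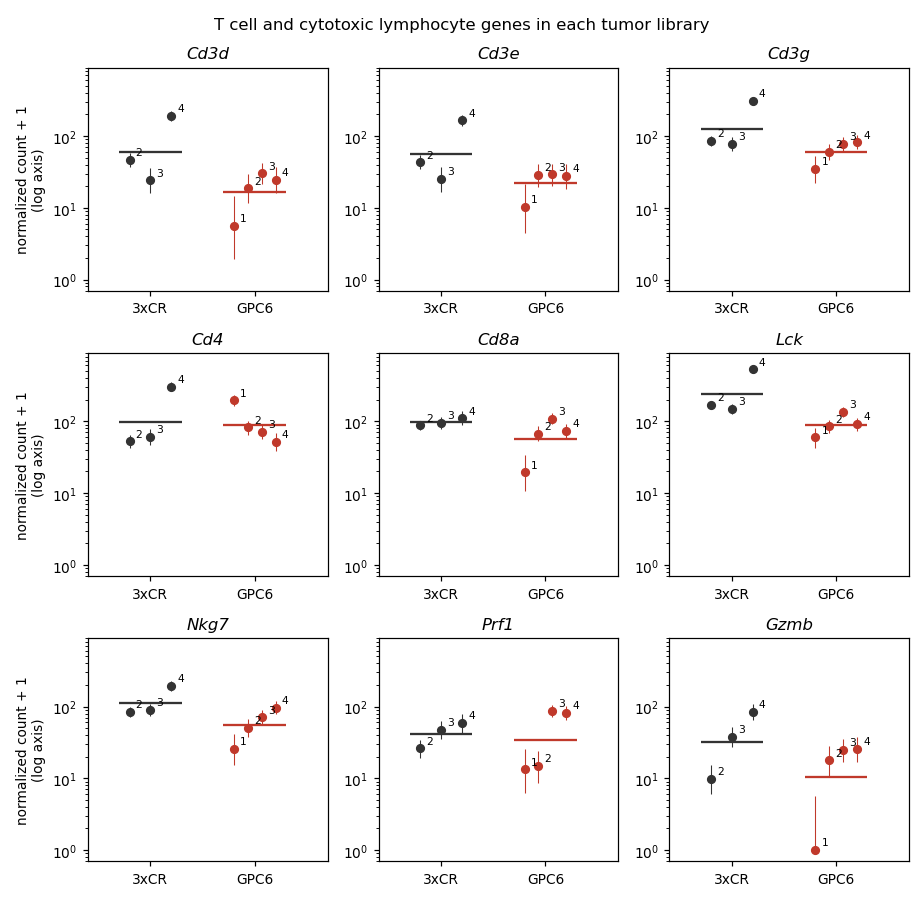
Normalized count + 1 of each of the 9 genes (vertical log axis) in the 3 libraries of 3xCR and the 4 of GPC6 tumors. Each point is 1 library with its replicate number and its 95% exact Poisson interval (for the count of 0, the limit of 3 reads), and the bar is the mean on the log scale. The point of 3xCR replicate 4 is the highest in 8 of 9 panels, and that of GPC6 replicate 1 the lowest in 8 of 9.

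Over the 9 genes, 3xCR replicate 4 was the highest library in 8, all but Prf1, and GPC6 replicate 1 the lowest in 8, all but Cd4. The summed normalized count of the 9 genes was 596, 600.0 and 1942 in 3xCR tumors and 359, 416, 630 and 546 in GPC6 tumors. It rested on 232 reads in GPC6 replicate 1, the fewest, and on 1406 in 3xCR replicate 4, the most. GPC6 replicates 3 and 4, with Gpc6 at 3434 and 5084 normalized counts, had sums of 630 and 546. Replicates 1 and 2, with Gpc6 at 675 and 263, had sums of 359 and 416. A link between the level of Gpc6 and these sums was not tested. Without the outermost library of each group the sums of the remaining 5 lay between 416 and 630. In bulk tissue, fewer lymphocytes and less RNA per lymphocyte cannot be told apart.

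Between the groups, all 9 genes had a lower mean log2 value in GPC6 tumors, where 51.7% of the genes tested did, and none passed the test (limma on log2(normalized count + 1), two-sided, Benjamini-Hochberg adjustment over all genes). In that test 0 of 14782 genes (0.0%) were below an adjusted p of 0.05 and 689 (4.66%) below an unadjusted p of 0.05. The CD3 chain genes had log2 fold changes of -1.84 for Cd3d (standard error 0.86), -1.35 for Cd3e (0.73) and -1.06 for Cd3g (0.57), with an adjusted p of 0.730 for each. For Lck the log2 fold change was -1.42 with a standard error of 0.50 (limma adjusted p = 0.730). Before adjustment Lck alone among the members was below 0.05 (limma unadjusted p = 0.0233), as were 1.92% of genes tested in this direction and 2.74% in the other. Groups lay apart with GPC6 above for 2.8% of genes and for 0 members. edgeR's quasi-likelihood test on the recovered reads put Cd3d, Cd3e and Lck below an unadjusted p of 0.05, and DESeq2 added Cd3g, with 2.95% of genes so in this direction in each tool and with adjusted p of at least 0.603 for the 9 genes in edgeR and at least 0.329 in DESeq2, which called 0.0211% of genes after adjustment, 0.0158% as lower. With a weight per library (arrayWeights of limma) 13.3% of genes were called after adjustment, 3.92% as lower. At an unadjusted p under 0.05, 16.1% were lower, and 0 of the 9 members were in either count. The weights were 8.71 for 3xCR replicate 3, 4.47 for GPC6 replicate 3 and 0.301 to 0.849 for the others. This fit thus leaned mostly on replicate 3 of each group.

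Of the other 5 members, Nkg7 differed about as much as Cd3g, and the rest had smaller or less certain differences. Nkg7 had a log2 fold change of -1.05 (95% interval -2.29 to 0.19) and Gzmb of -1.62 (-4.63 to 1.40). Cd8a had one of -0.77 (-2.11 to 0.57), with means of 66.5 ± 36.9 (SD, n = 4) for GPC6 against 96.9 ± 11.4 (SD, n = 3) for 3xCR. The intervals for Cd4, -1.82 to 1.48 around -0.17, and for Prf1, -2.16 to 1.60 around -0.28, reached far to both sides of 0, so that the libraries do not fix a direction for these genes. Prf1 was lower in GPC6 tumors on the log scale and higher by the plain mean, with 48.1 ± 40.5 (SD, n = 4) against 43.2 ± 16.6 (SD, n = 3). These scales are differences of log2(normalized count + 1), which understate changes at low counts.

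The differences were smaller without the outermost library of each group. As 3xCR replicate 4 was the highest library in 8 of the 9 members and GPC6 replicate 1 the lowest in 8, leaving both out had to raise most log2 fold changes. That fit therefore cannot tell by itself whether the groups differ, and the same limit holds where gene lists are given without both. With 3xCR replicate 4 and GPC6 replicate 1 both left out, a fit chosen after the values were seen, the log2 fold changes came to -0.48 for Cd3d, -0.21 for Cd3e, -0.16 for Cd3g, -0.17 for Cd8a, -0.65 for Lck and -0.31 for Nkg7. Those of Cd4, Prf1 and Gzmb were then 0.25, 0.42 and 0.22, above 0. The median over the 9 genes moved from -1.06 to -0.17, beside -0.019 and 0.013 over all genes tested, and 6 of the 9 were lower in place of 9. Leaving out 3xCR replicate 4 alone gave a median of -0.67, and 0 members at an unadjusted p under 0.05.

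**Figure D2:**
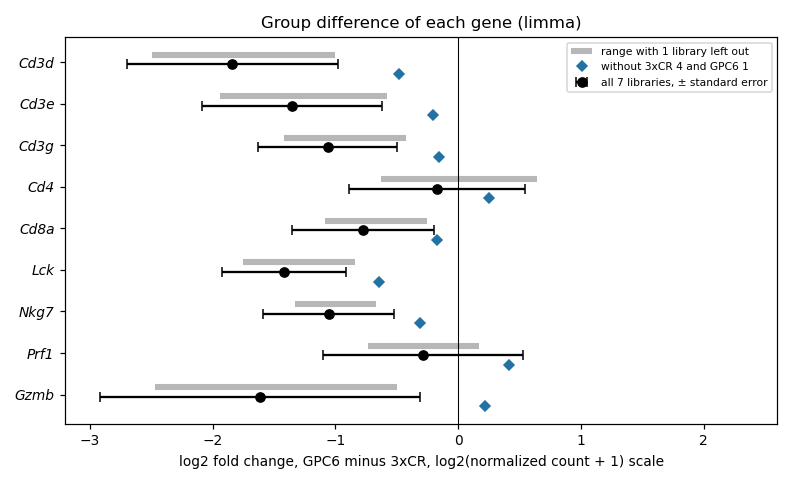
Log2 fold change of each gene between GPC6 and 3xCR tumors on the log2(normalized count + 1) scale (horizontal axis). Black points show the fit with all 7 libraries and its standard error, grey bars the range with 1 library left out, and blue diamonds the fit without 3xCR replicate 4 and GPC6 replicate 1. All 9 black points are below 0, the grey bars of Cd4 and Prf1 cross 0, and the diamonds lie between -0.65 and 0.42.

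Ratios within a library do not depend on how libraries were scaled to each other. Their counts are not scaled by gene length, so each ratio is compared between libraries and does not give the relative level of its genes. The CD3 chains summed to 69.3%, 29.7% and 53.5% of the normalized count of Ptprc, the gene of the pan-leukocyte antigen CD45, in 3xCR tumors and to 32.3%, 31.0%, 38.8% and 20.4% in GPC6 tumors. Set against Ptprc, then, 3xCR replicate 4 was not the highest library, GPC6 replicate 1 not the lowest, and the groups overlapped. Ptprc itself had 248, 417 and 1242 normalized counts in the 3xCR and 148, 338, 348 and 644 in the GPC6 libraries.

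Cd8a reached 1.68, 1.59 and 0.359 times Cd4 in 3xCR tumors and 0.0945, 0.817, 1.53 and 1.45 times Cd4 in GPC6 tumors. The lowest ratios were those of GPC6 replicate 1 and 3xCR replicate 4, the libraries with the least and the most CD3. Cd4 and CD3 were both high in 3xCR replicate 4, with Cd4 at 0.457 of the CD3 sum, while Cd4 stood at 4.10 times the CD3 sum in GPC6 replicate 1. In the other 6 libraries Cd4 was 0.299 to 0.774 of the CD3 sum. GPC6 replicate 1 was also the library with the most neuronal RNA of the 7 by a list of 8 neuronal markers, whose summed count there was 60643 and 3464 to 34233 elsewhere. By mean centred log2 value it was the lowest of the 7 in the lists of dendritic cells (-0.79), microglia (-1.03) and monocytes and macrophages (-1.89). Of the genes tested, 2 of 5 dendritic, 5 of 11 microglial and 4 of 8 monocyte and macrophage genes had their lowest value there. The summed dendritic count was 141 there, the highest of the GPC6 libraries, and 81.1 to 235 in 3xCR tumors. The part of other cells in the Cd4 reads of GPC6 replicate 1 was not tested.

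The cytotoxic genes summed to 0.678, 1.40 and 0.503 of the CD3 chains in 3xCR tumors and to 0.774, 0.764, 1.34 and 1.52 in GPC6 tumors. 3xCR replicate 4, which had the most CD3, thus had the least cytotoxic RNA per CD3. Lck kept closer to CD3, at 0.687 to 1.23 of the CD3 sum in all 7 libraries with both groups spread over that range. Within the granule genes, Gzmb was 0.348, 0.800 and 1.45 of Prf1 in 3xCR tumors and 1.21, 0.278 and 0.308 in the 3 GPC6 tumors that had Gzmb reads.

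**Figure D3:**
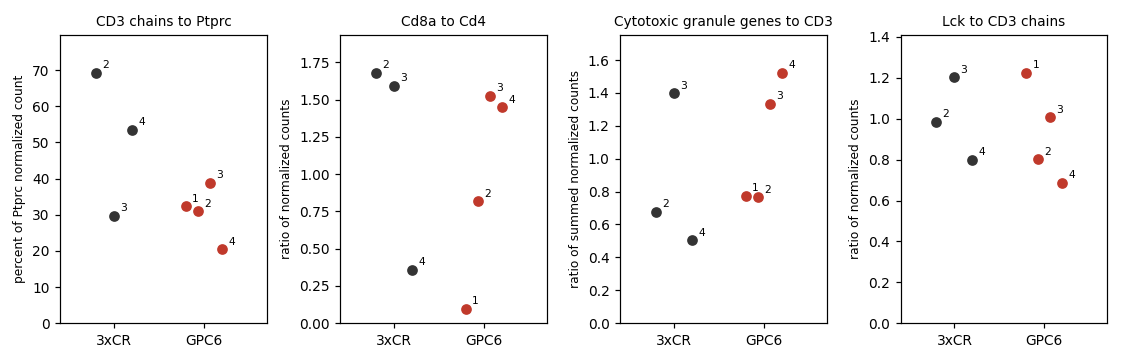
Ratios of normalized counts within each library (vertical axes, from 0) for 3xCR and GPC6 tumors, each point 1 library with its replicate number. From left to right are CD3 chains as a percent of Ptprc, Cd8a to Cd4, the sum of Nkg7, Prf1 and Gzmb to that of the CD3 chains, and Lck to CD3. The groups overlap in all 4 panels, and the lowest points of Cd8a to Cd4 are GPC6 replicate 1 (0.0945) and 3xCR replicate 4 (0.359).

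Across the 7 libraries the log2 values of the CD3 chain genes correlated with each other at r of 0.974 to 0.985, and with Lck at 0.945 to 0.958. With Nkg7 r was 0.892 to 0.935, with Gzmb 0.768 to 0.806, with Cd8a 0.702 to 0.790, with Prf1 0.430 to 0.555 and with Cd4 0.216 to 0.359. Without 3xCR replicate 4 the values for Cd4 became -0.982 to -0.908 and those for Cd8a 0.889 to 0.949, so that 1 library set much of these values. These are descriptions over 7 points that share their depth and tissue composition.

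Per kilobase of exon, the only scale on which genes can be set against each other, Nkg7 had the highest mean level of the 9 over the 7 libraries, at 94.4 normalized counts per kilobase, followed by Lck at 59.4 and Cd3g at 31.5. Cd4 (28.8), Cd3d (26.3), Cd8a (21.9), Gzmb (19.5) and Prf1 (17.8) came next, and Cd3e was lowest at 11.4. Nkg7 was first in 6 of the 7 libraries, all but GPC6 replicate 1 where Cd4 was, and Lck was second in 5. The order of the others changed from library to library, so that neighbours from Cd3g down are not apart beyond their spread. Cd3e has 4080 bases of annotated exon, in a gene overlapped on the other strand by an annotated antisense transcript, and whether the counting used strand is not stated.

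Genes that work beside the members in the same pathway mostly had lower means in GPC6 tumors too, none of them past the adjusted test. Of 22 further genes of T cell receptor signalling, 18 were tested, all 18 had a lower mean in GPC6 tumors and 0 were below an unadjusted p of 0.05, with a median log2 fold change of -0.92, or -0.12 without 3xCR replicate 4 and GPC6 replicate 1, where 11 of 16 tested were lower. Cd247, which encodes the CD3 zeta chain, had 36.7, 39.1 and 251 normalized counts in the 3xCR and 12.4, 18.8, 39.0 and 35.0 in the GPC6 libraries, a pattern close to that of Cd3d. Zap70, the kinase that docks on phosphorylated CD3, had a log2 fold change of -1.15, and Lat, its substrate and the gene of lowest log2 fold change on the list, one of -1.72 (limma adjusted p = 0.730 for both). Without both libraries these were -0.11 and -0.53, and that of Cd247 went from -1.55 to -0.35. Prkcq had the highest mean normalized count of the list (792, not scaled by gene length). It had a log2 fold change of -0.074 and did not run with the members (r of -0.27 with their mean over the 7 libraries).

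Among 17 tested genes of T cell lineage and homing, 15 were lower and 2 higher in GPC6 tumors, with a median of -0.86, and without both libraries 6 of 15 were lower, with a median of 0.052. Cd69, an early activation marker, was lowest at -2.16 (limma unadjusted p = 0.0344) and the 1 gene of the list under 0.05. Its groups did not overlap, at 34.4 to 91.2 normalized counts for 3xCR and 1.55 to 20.7 for GPC6. Over all genes tested, 1.92% were under an unadjusted p of 0.05 and 3.52% had groups apart in this direction. Without both libraries the log2 fold change of Cd69 was -1.02. Eomes (1.42) and Bcl11b (1.12) were the 2 with a higher mean, and both are transcription factors of neurons as well as of T cells. Bcl11b had 762 normalized counts in GPC6 replicate 1, the library highest in neuronal markers, and 46.3 to 253 elsewhere, and the part of neurons in it was not tested. S1pr1, a receptor for lymphocyte egress that endothelial cells and astrocytes also express, had the highest mean normalized count of the list (1195). Its log2 fold change was -0.47, or -1.28 without both libraries.

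The 6 inhibitory receptor genes tested were all lower in GPC6 tumors, with a median of -1.32, 2 of them (Pdcd1 and Lag3) were below an unadjusted p of 0.05, and the groups of 2 (Pdcd1 and Btla) did not overlap, where over all genes tested 1.92% and 3.52% were so in this direction. Pdcd1, which encodes PD-1, had 99.2, 141 and 535 normalized counts in 3xCR tumors and 38.6, 50.4, 72.7 and 70.0 in GPC6 tumors, a log2 fold change of -1.79 (limma unadjusted p = 0.0162, adjusted p = 0.730). Lag3 had the highest mean normalized count of the list and is also expressed outside T cells in the brain. It had 920 to 1396 in the 3xCR and 302 to 1027 in the GPC6 libraries, overlapping. Lag3 had a log2 fold change of -1.0 (limma unadjusted p = 0.0441), and Havcr2 the smallest difference of the list at -0.37. Without the outermost library of each group all 6 were still lower, with a median of -0.59 and with Pdcd1 at -0.89. The 11 microglial markers were also all lower without both, with a median of -0.47, and no difference between lists was tested.

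Of 18 further cytotoxic and NK cell genes, 12 were tested, of which 11 were lower in GPC6 tumors and 2 of them below an unadjusted p of 0.05 (Ccl5 at -1.88 and Klrd1 at -1.31, where 1.92% of all genes were so), with a median of -1.17 that became 0.067 without the outermost library of each group. Ccl5, a chemokine of activated T cells and of microglia, had the highest mean normalized count of the list. It had 277, 510 and 2079 normalized counts in the 3xCR and 108, 134, 489 and 147 in the GPC6 libraries. Its log2 fold change was -0.81 without both outermost libraries. Ncr1, the gene of the NK cell receptor NKp46, was below the limit for testing, with 0.548, 20.5 and 19.3 in the 3xCR and 0, 0.988, 3.55 and 10.3 in the GPC6 libraries. Gzmm was the 1 gene of the list with a higher mean (0.41).

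The ligands of the coreceptors were abundant and had their highest counts in the same library. All 7 genes of MHC chains and their partners had their highest value in 3xCR replicate 4 and 6 of them their lowest in GPC6 replicate 1, and 6 of 7 were lower in GPC6 tumors with a median log2 fold change of -0.82. Without 3xCR replicate 4 and GPC6 replicate 1 the median was -0.18, with 6 of 7 lower. H2-K1, a class I heavy chain and the gene of highest mean normalized count, had a log2 fold change of -0.82. H2-Ab1, a class II chain, had the lowest of the list at -1.10, and H2-Eb1 one of 0.33. Without both libraries these were -0.18, -0.14 and 1.81. Of 6 chemokines that draw T cells, 5 were lower, Cxcl9 most (-1.75) with 613, 2231 and 9228 normalized counts in the 3xCR and 179, 492, 1259 and 2058 in the GPC6 libraries, while Ccl19 was higher (0.77). Without both libraries 3 of the 6 were lower and 3 higher, the median went from -1.34 to -0.052, and Cxcl9 was at -0.11. None of these 13 genes was below an unadjusted p of 0.05.

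Markers of other cells varied between the libraries too, some along with the lymphocyte genes and others not. Their part in the results was not tested. All 5 pan-leukocyte genes were highest in 3xCR replicate 4 and 4 of them lowest in GPC6 replicate 1, and they summed to 5464 to 13630 normalized counts for 3xCR and 3176 to 6445 for GPC6. The 9 B cell markers summed to 374 to 88136 in the 3xCR and 344 to 3410 in the GPC6 libraries, and 7 of the 8 tested were highest in 3xCR replicate 4. Jchain, the joining chain of antibodies, took 0.736% of the reads of 3xCR replicate 4 and at most 0.0449% of any other library. Cd79a, a B cell receptor chain, had 1858 normalized counts there and 27.9 to 107 in the other 6, and Pax5 was at 0 to 1.86 in all libraries. The 8 monocyte and macrophage markers summed to 510.3 to 5518 and 284 to 1510, the 11 microglial ones to 13175 to 18471 and 8282 to 12041 without overlap of the groups, the 6 of dendritic cells to 81.1 to 235 and 80.0 to 141, and the 7 neutrophil markers found to 15.9 to 68.8 and 20.7 to 95.7. Of the 11 microglial genes, 4 were lower in GPC6 tumors at a limma unadjusted p under 0.05 and 3 had groups apart. Over all genes tested, 1.92% and 3.52% were so in this direction. At the other end, GPC6 replicate 1 was the lowest library in all 8 proliferation markers, which summed to 530 there and 4318 to 11809 in the other 6. Neuronal markers were lowest in 3xCR replicate 4 by their mean centred log2 value (-2.73) and highest in GPC6 replicate 1 (2.90), which is the reverse of the CD3 chains (2.32 and -1.77).

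**Figure D4:**
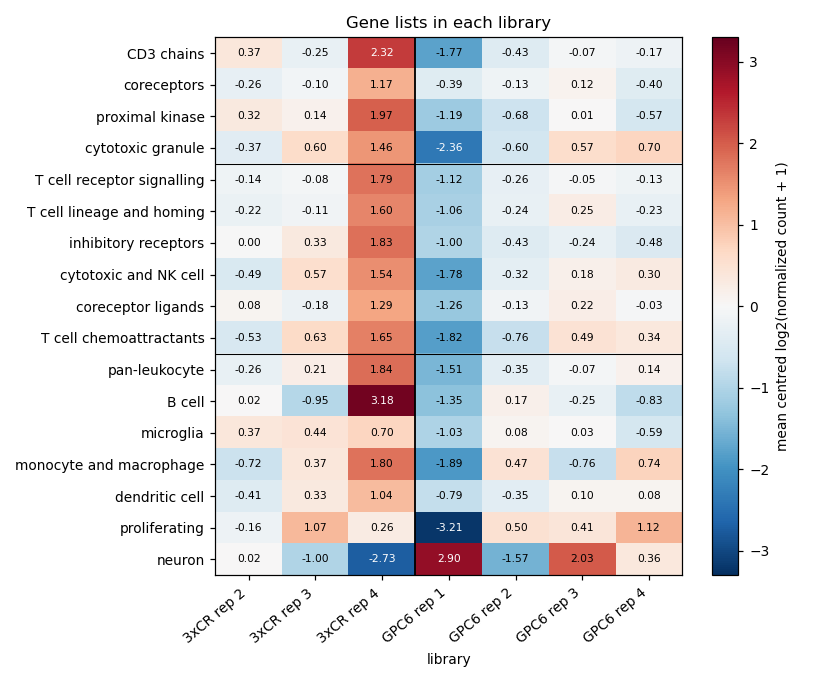
Mean over each gene list (rows) of log2(normalized count + 1) centred on the gene's mean, in each library (columns, 3xCR left of the line and GPC6 right). Red is above and blue below the mean of the 7 libraries. The rows of CD3 chains, coreceptor ligands (MHC) and pan-leukocyte genes are highest in 3xCR replicate 4 (CD3 chains 2.32) and lowest in GPC6 replicate 1 (-1.77), and the neuron row runs the other way (-2.73 and 2.90).

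Among genes outside the 9, those whose log2 values ran most like the mean of the 9 members over the 7 libraries were Slc25a43, Def6, Lst1, Gimap5, Efemp2, Lrrk1, Cd52, Entpd1, Nfe2l2 and Mrps16, with r from 0.996 to 0.987. Def6, a guanine nucleotide exchange factor of lymphocytes, had 78.4, 100.5 and 247 normalized counts in the 3xCR and 30.9, 72.1, 109 and 93.6 in the GPC6 libraries. Gimap5, a GTPase gene of lymphocytes, and Cd52, a leukocyte surface antigen, had r of 0.991 and 0.990. Without 3xCR replicate 4 the 10 genes had r of 0.972 to 0.997 over 6 libraries. They were picked for this likeness out of 14782 genes, so it is a description and no test.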

How the data were processed

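Bulk RNA-Seq of endpoint tumor tissue was used, 3 libraries of 3xCR and 4 of GPC6 tumors, grouped by the sample labels. The authors aligned reads to mm10 with STAR 2.5.0a, counted them on genes and normalized with DESeq2 1.20.0, and the deposited values are a normalized signal per gene (normalized counts), without correction for length. Whether strand was used and how reads that fit several genes were treated is not stated. Reads were recovered from the steps of each library, with 100% of values whole within 0.01 reads. Library totals were 7197692 to 18879762 reads, so that a count of 0 allows 1.64 to 4.64 normalized counts (3 reads). Of the entries, 25 had names turned into dates and were left out (0.254% to 0.361% of reads).

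Groups were compared on log2(normalized count + 1) with limma 3.58.1 (R 4.3.3), two-sided, over the 14782 genes with a mean of at least 10, with Benjamini-Hochberg adjustment over all of them. edgeR 4.0.16 and DESeq2 1.42.0 on recovered reads were alternatives, beside other pseudocounts (0.5 and 5), filters (none, or a mean of 50), scalings, library weights, a replicate block and each library left out. The fits were tested on simulated data. Labels do not say that libraries came from separate litters, so p-values measure the spread between these 7 libraries. The member genes and all lists were chosen with earlier results of these data known. Named from each pathway list were its gene of highest mean normalized count, which is not scaled by length, and the genes at both ends of its log2 fold changes. Ptprc, Gpc6, Cd247, Cd8b1, Zap70 and the 10 genes most like the members were named too. Cell type lists are given as summed levels, without the genes at their ends. Klrd1, Btla, Ncr1, Cd79a, Jchain, Pax5 and Bcl11b were chosen after their values were seen. Locations were taken from GENCODE M21 and promoters from RefSeq, both on GRCm38.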

Additional observations from a re-analysis of the deposited data

Results flagged for a closer look

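In 4 of 35 quantities examined in the GPC6 group, the outermost of the 4 libraries lay farther from the others than Dixon's 95% limit allows, where chance gives 1.75, and in all 4 it was GPC6 replicate 1. Cd3e had 9.27 normalized counts there, on 6 reads, and 26.7 to 28.4 in the other GPC6 libraries. Gzmb had 0.0 normalized counts there, on 0 reads, and 16.8 to 24.7 in the others. The ratio of Cd8b1 to Cd8a was 1.0 there, on 12 reads of each gene, and 0.437 to 0.463 in the others. The mean centred log2 value of the 8 proliferation markers was -3.21 there and 0.406 to 1.12 in the others. The cause was not tested.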

How the results depend on the processing

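Of the alternatives tried, none brought a member below an adjusted p of 0.05 (0 of 9 in all 18, with adjusted p from 0.238 upward). The count of genes called was 0 in limma, 0 with edgeR and with each library left out, 4 with DESeq2 and 1962 with library weights. Those weights leaned on 3xCR replicate 3 (8.71) and GPC6 replicate 3 (4.47). Of the members, 8 to 9 were lower in GPC6 tumors with 1 library left out and 5 with a mean of at least 50, where only 5 were tested. The median log2 fold change of the 9 was -1.42 to -0.67 with 1 library left out, -0.12 with library weights and -0.17 without both 3xCR replicate 4 and GPC6 replicate 1 (5 libraries, chosen after seeing the data). Without both, the medians of T cell lineage and homing and of cytotoxic and NK cell genes turned to 0.052 and 0.067, and Gzmb to 0.22. Cd4 turned to 0.21 with library weights and 0.25 without both, and ran from -0.63 to 0.64 with 1 library left out. It was 0.64 without 3xCR replicate 4. Prf1 turned to 0.16 with edgeR, 0.17 with DESeq2, 0.56 with library weights and 0.42 without both, and ran from -0.73 to 0.17 with 1 library left out. With the replicate number as a block, Prf1 was 0.17, 8 members were lower with a median of -0.69, and 0 genes were called. Same-numbered libraries correlated in their deviations at -0.19, 0.12 and 0.30, and different-numbered ones at -0.46 to 0.50. So few pairs cannot tell whether the numbers pair the libraries. GPC6 replicate 1 has no partner in that replicate block. Genes under an unadjusted p of 0.05 numbered 119 to 1401 with 1 library left out, against 689, the fewest without 3xCR replicate 4. Over all results and alternatives 337 values kept their direction and side of the threshold (or stayed within the limits of a count or median), 23 moved and 14 reversed. Depth limits Gzmb and Cd3d most, with 0 and 3 reads in GPC6 replicate 1.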
